A study of Danio rerio with 17 samples.

Results

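Liver RNA of 8 zebrafish fed a diet with 25% carbohydrate was compared between the sexes, with 5 females (fish 3, 20, 24, 49 and 51) set against 3 males (fish 52, 53 and 54). The arrays were taken by sex and diet from the sample titles, and they are 8 of the 17 arrays of the series, which also holds 5 females and 4 males fed 0% carbohydrate. Each fish gave 1 Affymetrix array, hybridised with biotin-labelled cRNA made from total liver RNA, so that each replicate is a separate animal. Age, strain and reproductive state are not given in the sources used here. The values are the authors' deposited log2 expression values, 1 per probe set and array, in which a difference of 1 is a 2-fold difference; differences below are female minus male unless another difference is named. The labelled tissue was checked with hepatocyte markers: fabp10a, the liver fatty acid binding protein, lay between 12.89 and 13.51 on the 8 arrays, and transferrin a (tfa) between 12.73 and 13.05, against array medians of 3.52 to 3.61.

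In egg-laying vertebrates the female liver makes the yolk. Oestradiol from the ovary enters hepatocytes, binds the oestrogen receptor esr1, and raises transcription of esr1 itself and of the vitellogenin genes, whose protein products are secreted into the blood and taken up by growing oocytes. The making and secretion of so much protein draws on ribosomes, on the endoplasmic reticulum and on lipid supply, and in fish the liver is also the main source of circulating insulin-like growth factor. Dietary carbohydrate acts on the same organ through insulin, glycolysis, glycogen and fatty acid synthesis.

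Correlations between arrays were 0.968 to 0.979 among females, 0.925 to 0.977 among males and 0.892 to 0.949 between the sexes. Male fish 52 stood apart from the other 2 males. Its mean over 29 intestinal epithelium markers was 7.31, against 4.02 to 4.79 in the females and 4.16 and 4.01 in the other males, and 17 of the 29 markers were higher in it by at least 1 than in any other fish. The intestinal fatty acid binding protein gene fabp2 read 12.2 in fish 52, against 3.29 to 6.12 in the females and 3.33 and 3.70 in the other males. Its mean over 44 muscle markers was 5.22, against 3.64 to 3.78 in the females and 3.80 and 3.75 in the other males. Results that rest on fish 52 are given with and without it. In bulk liver RNA, more cells of a type and more RNA per cell cannot be told apart.

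Of 15502 probe sets tested, 394 (2.54%) passed an adjusted p of 0.05 in limma, 300 of them higher in females and 94 lower. A difference of at least 2-fold was met by 216 of the higher and 28 of the lower probe sets. In all 394 the 5 females and 3 males did not overlap. That adds no separate evidence, because the 394 were chosen by p on these same arrays. Of the higher probe sets, 146 were below the array median in all 3 males, so the sizes of those differences are approximate. Counted once per gene, at its brightest probe set, 196 of 8793 genes (2.23%) were higher in females and 60 (0.682%) lower, and all 5 females lay above all 3 males for 8.06% of genes and below them for 4.55%. Without fish 52 the shares were 1.55% higher and 1.08% lower. Of the 394 called probe sets, 255 were also called without fish 52, 210 higher and 45 lower.

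**Figure D1:**
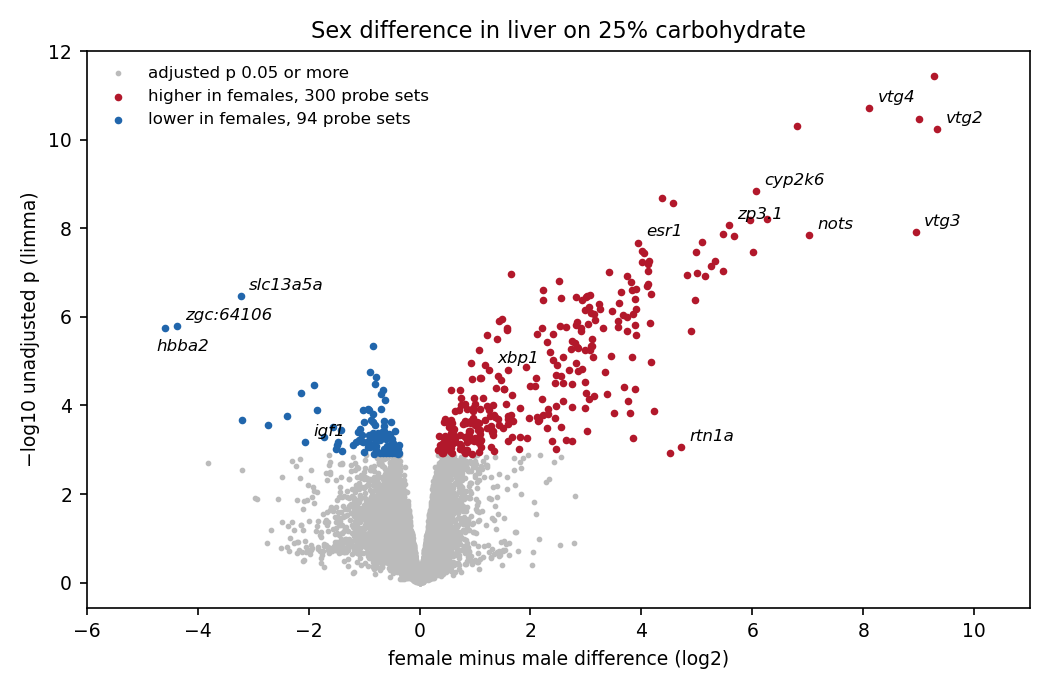
Each point is 1 of 15502 probe sets, placed by its female minus male difference (log2, x axis) and by the −log10 of its unadjusted limma p (y axis). The 300 probe sets higher in females (red) reach a difference of 9.33 for vtg2, and the 94 lower in females (blue) reach -4.60 for hbba2.

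The yolk genes had the highest differences. vtg2, which encodes a vitellogenin, the yolk precursor protein, read 13.8, 13.9, 13.1, 13.8 and 13.8 in female fish 3, 20, 24, 49 and 51, against 4.16, 4.26 and 4.61 in male fish 52, 53 and 54. The difference was 9.33 ± 0.21 (SE; adjusted p 1.78e-07). vtg3, the vitellogenin that lacks the phosphate-rich phosvitin segment, read 12.5, 12.4, 10.7, 11.7 and 12.2 in females and 2.87, 2.82 and 3.17 in males, a difference of 8.94 ± 0.39 (adjusted p 1.54e-05). In both genes fish 24 was the lowest female, and the males lay within 0.5 of each other. vtg4 read 11.8 to 12.4 in females and 3.85 to 4.32 in males (8.11 ± 0.16, adjusted p 1.502e-07). nots encodes nothepsin, an aspartic protease of female fish liver, and read 10.0 to 11.4 in females and 3.37 to 4.18 in males (7.02 ± 0.31, adjusted p 1.54e-05).

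The oestrogen receptors differed among themselves. esr1 read 7.31, 7.60, 6.93, 7.10 and 6.80 in females, against 3.04, 3.23 and 3.37 in males, all 3 males being below their array median, and the difference was 3.94 ± 0.18 (adjusted p 1.91e-05). Its second probe set gave 3.74. esr2a, a receptor of the beta type, read 6.05 to 6.60 in females and 6.22 to 6.63 in males (-0.25 ± 0.15, adjusted p 0.476), and esr2b read 6.09 to 7.12 in females and 5.05 to 7.89 in males (0.61 ± 0.60, adjusted p 0.679). The sexes overlapped in both. hdlbpa, the vigilin gene, whose RNA-binding product is known from Xenopus liver to bind vitellogenin mRNA, read 11.6 to 11.8 in females and 10.3, 11.3 and 11.2 in males. Its groups did not overlap, but the difference of 0.71 ± 0.21 did not pass (adjusted p 0.145), and without fish 52 it was 0.41 (adjusted p 0.0893). In all, 5 of the 8 measured members of this list were higher in females and none lower, with a median difference of 5.48 beside 0.002 over all genes. Each of the 5 passed in every fit that left out 1 fish, and esr2b passed as a sixth member, 1.49 higher in females (adjusted p 0.0488), only without male fish 53. A probe set for vtg1 alone was not used here.

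**Figure D2:**
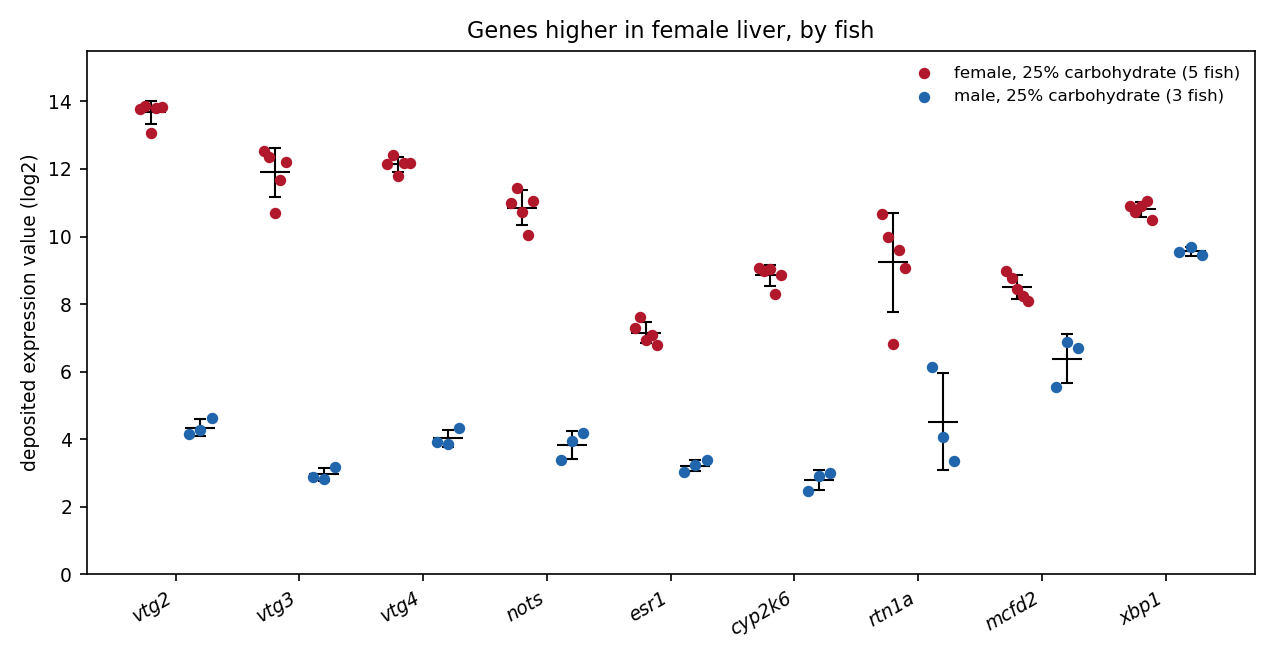
Deposited log2 values (y axis) of 9 genes by fish, with the 5 females (red) left of the 3 males (blue) for each gene; the line and bars are the mean ± SD. The sexes are separate in every gene shown, by the most in vtg2 and vtg3 and, relative to the scatter among fish, by the least in rtn1a, where 1 female read 6.82 and 1 male 6.12.

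Single genes of the liver and of the secretory route were also higher in females. cyp2k6, a cytochrome P450 gene, read 9.07, 8.98, 9.04, 8.31 and 8.85 in females, against 2.47, 2.92 and 2.99 in males (6.06 ± 0.20, adjusted p 3.64e-06). rtn1a, a reticulon gene whose family shapes the endoplasmic reticulum membrane, read 10.7, 9.99, 6.82, 9.61 and 9.07 in females, against 6.12, 4.07 and 3.36 in males. Its difference of 4.71 ± 0.92 passed narrowly (adjusted p 0.0397), and fish 24 and fish 52 came within 0.7 of each other. rtn1a lost its call when female fish 3, 20, 49 or 51 or male fish 53 or 54 was left out, with adjusted p 0.0784, 0.0992, 0.0848, 0.0897, 0.151 and 0.127 in that order, and it had 0.0578 with a robust variance prior.

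Of 116 genes of endoplasmic reticulum folding and export, 4 were higher in females and 1 lower, shares near the 2.23% and 0.682% of all genes. The counts were 2 higher without fish 54 and 2 lower without fish 52. mcfd2, a partner of the cargo receptor that carries glycoproteins out of the endoplasmic reticulum, read 8.97, 8.77, 8.43, 8.23 and 8.101 in females, against 5.55, 6.88 and 6.70 in males (2.12 ± 0.33, adjusted p 0.0145). xbp1, whose spliced product turns on genes that expand the folding capacity of the endoplasmic reticulum, read 10.48 to 11.05 in females and 9.44 to 9.70 in males (1.25 ± 0.14, adjusted p 0.00201). ssr3, a subunit of the translocon-associated complex, was higher by 0.89 ± 0.14 (adjusted p 0.0164, and 0.0524 without male fish 54). atf4b, a transcription factor of the amino acid and stress response, read 5.24 to 5.77 in females and 6.01 to 6.56 in males (-0.82 ± 0.17, adjusted p 0.0489). atf4b passed without male fish 52 (adjusted p 0.0281) and was lost when any of the other 7 fish was left out, with adjusted p of 0.0537 to 0.174, as it was after quantile normalization (0.0676). The list median was -0.025 and turned to 0.036 under quantile normalization, so the list as a whole had no direction.

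Many genes known from oocytes were higher in female liver samples. The list mean over 32 ovary and oocyte markers was 5.01, 4.88, 5.32, 5.04 and 5.53 in female fish 3, 20, 24, 49 and 51, against 3.19, 3.31 and 3.45 in male fish 52, 53 and 54. Of the 32 markers 21 were higher in females and none lower, and 25 did not overlap between the sexes, beside the shares over all genes given above. The median difference over the list was 1.51. Of the 21 called markers, 13 were below the array median in all 3 males. Without fish 52, 19 were called, and over the 8 fits that each left out 1 fish the count was 18 to 21.

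The egg coat genes led this group. zp2.6, which encodes a zona pellucida protein of the egg envelope, read 9.11, 8.90, 9.75, 9.60 and 9.97 in females, against 3.95, 4.10 and 4.88 in males (5.15 ± 0.30, adjusted p 5.54e-05). zp3a.1, another egg coat gene, read 6.98, 6.68, 7.57, 6.69 and 7.11 in females, against 2.92, 3.09 and 2.87 in males (4.05 ± 0.20, adjusted p 2.71e-05). zp3.1, which is outside the list, was higher by 5.57 ± 0.23 (adjusted p 1.17e-05) in a probe set that shares probes with other transcripts, and by 3.90 in its second probe set. cldnd, a claudin of tight junctions that is also known as a maternal transcript, read 7.40 to 9.08 in females and 3.98 to 4.19 in males (4.16 ± 0.33, adjusted p 0.000305). These 4 genes passed in each fit that left out 1 fish.

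Not every marker of the ovary passed. cyp19a1a, the ovarian aromatase that makes oestradiol, read 2.96 to 3.24 in females and 2.80 to 3.23 in males (0.06 ± 0.11, adjusted p 0.840), all 8 fish being below their array median. fshr, the receptor for follicle-stimulating hormone on the cells around the oocyte, read 2.90 to 3.18 in females and 2.88 to 3.102 in males (adjusted p 0.862). Both are genes of the follicle. Genes of the egg and oocyte also failed to pass: among the egg coat genes zpd differed by 0.41 (adjusted p 0.448), zp3d.1 by 0.16 (0.342) and zp3d.2 by 0.62 (0.122). The meiotic kinase gene wee2 differed by 0.36 (adjusted p 0.380) and the linker histone gene h1-10 by 0.43 (adjusted p 0.517). These 5 were named after their values were seen. In zp3d.1 and zp3d.2 all females lay above all males. dazl, also on the list and also named after its values were seen, read 3.91 to 4.81 in females and 3.01 to 3.36 in males (0.98 ± 0.21, adjusted p 0.0516). ddx4, the germ cell helicase vasa, read 2.78 to 2.92 in females and 2.43 to 2.65 in males (0.32 ± 0.08, adjusted p 0.0841) and was below the array median throughout.

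The oocyte genes and the yolk genes differed in how the sexes compared on the other diet. The 21 called oocyte markers were chosen for passing on 25% carbohydrate. Their median difference was 2.58 on 25% and 0.621 on 0%. On 0% their differences ran from 0.178 to 1.504, and only npm2b, a histone chaperone of the egg named here after its values were seen, passed. Over all 32 markers the median was 1.51 on 25% and 0.495 on 0%. The interaction, which is the sex difference on 25% minus that on 0% in a fit of all 17 arrays, passed upward for 69 of 8793 genes (0.785%), and 12 of the 32 oocyte markers were among them. For zp3a.1 the interaction was 3.03 ± 0.53 (adjusted p 0.0148) and for cldnd 3.29 ± 0.59 (adjusted p 0.0183). For zp2.6 it was 3.65 ± 0.90 and did not pass (adjusted p 0.108), except without female fish 8 of the 0% diet. No yolk gene passed it: the difference of vtg3 was 8.94 on 25% and 8.85 on 0%, that of nots 7.02 and 6.99, and that of esr1 3.94 and 4.50. For vtg2 the differences were 9.33 and 7.47, with males of the 0% diet at 6.39 ± 2.25 (SD, n = 4), and the interaction of 1.86 ± 1.01 had an adjusted p of 0.936 in limma. zp3a.1 lost its interaction call in 1 and cldnd in 3 of the 17 fits in which a single fish was dropped, with adjusted p up to 0.0525 and 0.0575, and cldnd also lost it with array weights (adjusted p 0.0596). The count of 12 depended on single fish: it was 5 without male fish 52, 53 or 54, and 8 without female fish 24. Dropping a fish of the 0% diet gave 6 (males 26, 30), 7 (females 7, 10, 27 and male 66) or 8 (male 11) at the low end. Without female fish 8 of that diet the count was 16. Array weights gave 6 and quantile normalization 9. Brighter probe sets only and a robust, intensity-dependent variance prior each gave 13.

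**Figure D3:**
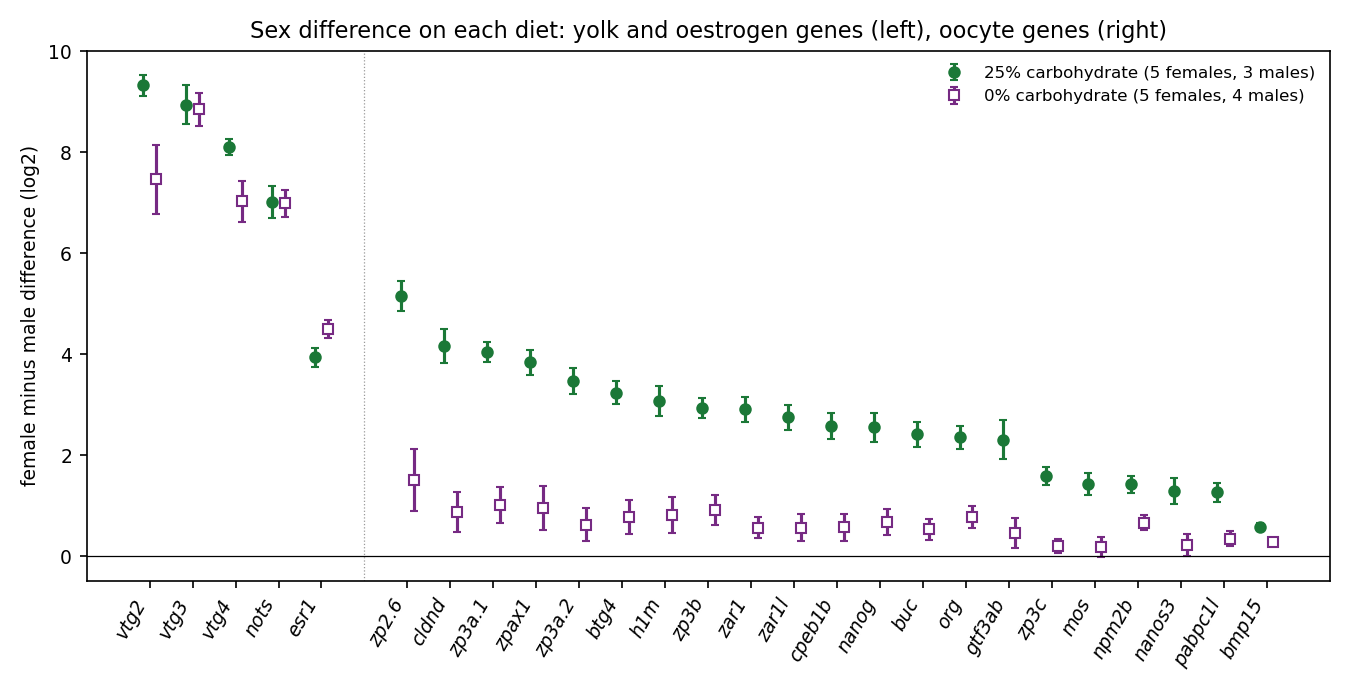
Female minus male difference (log2, y axis) of the 5 called yolk and oestrogen genes and the 21 called oocyte markers, on 25% carbohydrate (filled circles, limma fit of 8 arrays) and on 0% (open squares, limma fit of 17 arrays); bars are SE. The oocyte markers were chosen because they passed on 25%, where their median is 2.58 beside 0.621 on 0%. The differences of vtg3, nots and esr1 lie close together on both diets, while those of vtg2 (9.33 and 7.47) and vtg4 (8.11 and 7.03) are smaller on 0%.

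Genes of cell division moved in the same direction as the oocyte markers. Of 88 measured genes 14 were higher in females and none lower, 50 lay above all males in every female, and 7 passed the interaction, beside 2.23%, 8.06% and 0.785% of all genes. ccnb1, the cyclin that drives entry into mitosis and meiosis, read 6.53, 6.64, 7.12, 7.23 and 7.24 in females, against 3.62, 3.36 and 3.61 in males (3.42 ± 0.19, adjusted p 5.04e-05), in a probe set that shares probes with other transcripts. cdca7a, a chromatin-associated gene of dividing cells, was higher by 2.81 ± 0.29 (adjusted p 0.00152), and ccnb2, a second B-type cyclin, by 2.48 ± 0.26 (adjusted p 0.00161). The interaction of cdca7a (2.14, adjusted p 0.0410) was lost in 14 of the 17 fits without 1 fish, with adjusted p up to 0.154, and with array weights (0.0539). ccna1, the germ cell A-type cyclin on the list of testis and germ cell markers, read 6.14 to 7.12 in females and 3.44 to 3.88 in males (2.84 ± 0.22, adjusted p 0.000282). On that list 2 were higher in females and none lower, beside 2.23% and 0.682% of all genes. The other member called on that list of 21 was dnd1, a germ plasm gene, by 0.42 ± 0.09 (adjusted p 0.0469), which was lost when any 1 of the 8 fish was left out, with adjusted p of 0.0590 to 0.169, and whose second probe set gave 0.60 (adjusted p 0.190). The calls of ccnb1, ccnb2, ccna1 and cdca7a held in each of those fits, while the count of called division genes was 8 without fish 52, without fish 53 or without fish 54 and reached 15 without fish 3. With a robust, intensity-dependent variance prior it was 22, and with all 17 arrays in the fit 40. Over all 8793 genes, 196 were higher in the fit of 8 arrays and 372 with all 17 arrays. Without fish 52, 1.55% of all genes were higher. The 7 interaction calls were 4 or 5 without most single fish, 10 without female fish 8 of the 0% diet and 11 without fish 3.

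Within the females, fish 51 had the highest mean of both lists, 5.53 for the oocyte markers and 4.39 for the division genes, and in males the division mean was 3.53 to 3.56. The part that oocyte RNA in the samples plays in the division genes, and in the other genes that differ more on 25% carbohydrate, was not tested. The 14 called division genes were chosen for passing on 25%. Their median difference was 1.42 on 25% and 0.200 on 0%, where none passed. Over all 88 division genes the median was 0.405 on 25% and 0.15 on 0%.

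Several of the genes with the highest differences have no described role in the files. zgc:173856 was higher in females by 4.57 ± 0.16 (adjusted p 5.02e-06) in 1 probe set, which shares probes with other transcripts, and by 3.03, 2.31 and 1.97 in its other 3, all of which passed. The probe sets that gave 2.31 and 1.97 share probes with other transcripts as well. zgc:171474 was higher by 4.37 ± 0.15 (adjusted p 4.43e-06) and si:dkey-229d11.5 by 4.17 ± 0.43 (adjusted p 0.00142). This probe set of si:dkey-229d11.5 also shares probes with other transcripts, and its second probe set gave 4.11. In the probe sets that gave 4.57, 4.37 and 4.17 all males lay below the array median. Among interactions that passed, the 5 highest of probe sets with 1 symbol were those of si:dkey-90l23.1 (3.43 ± 0.41, adjusted p 0.00368), si:ch211-12h2.8 (3.35 ± 0.72, adjusted p 0.0466), tmsb5 (3.30 ± 0.56, adjusted p 0.0119), cldnd and zgc:173837 (3.28 ± 0.55, adjusted p 0.0119). The other 2 probe sets of zgc:173837 gave 2.72 (adjusted p 0.0462) and 2.24 (adjusted p 0.0789). tmsb5, a thymosin beta gene of the actin-binding kind, read 6.13, 5.44, 6.82, 5.56 and 7.52 in females, against 2.63, 2.62 and 2.56 in males. The interaction of si:ch211-12h2.8 was lost in 14 of 17 fits with 1 fish dropped, with adjusted p up to 0.134, after quantile normalization (0.0646) and with array weights (0.121).

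Single members of other cell type lists also differed between the sexes. chia.4, an acidic chitinase gene on the intestinal list, read 4.94, 4.67, 5.91, 5.80 and 5.87 in females, against 2.79, 2.95 and 2.82 in males (2.58 ± 0.31, adjusted p 0.00352), and was the only one of 29 intestinal markers called. It was not high in fish 52. ctss2.1, a cathepsin S gene on the leukocyte list, was higher by 3.46 ± 0.34 (adjusted p 0.00111) and was the only one of 36 called. These single calls stand beside 2.23% of all genes higher in females. The median difference was -1.134 over the intestinal list (5 of 29 positive) and -0.172 over the leukocyte list (7 of 36 positive). Without fish 52 the medians were 0.046 and -0.043. thy1, a surface glycoprotein gene on the stroma list, was higher by 3.37 ± 0.44 (adjusted p 0.00561), while mmp2, a matrix protease, differed by -0.44 ± 0.09 (adjusted p 0.0472). They were the only calls of 43 stroma and endothelium markers (median -0.161), beside 2.23% higher and 0.682% lower over all genes. The second probe set of mmp2 gave -0.31 (adjusted p 0.370). The call of mmp2 was lost without fish 3, 20, 24, 51, 52, 53 or 54, with adjusted p from 0.0845 to 0.154, and chia.4, ctss2.1 and thy1 kept theirs in all 8 fits.

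**Figure D4:**
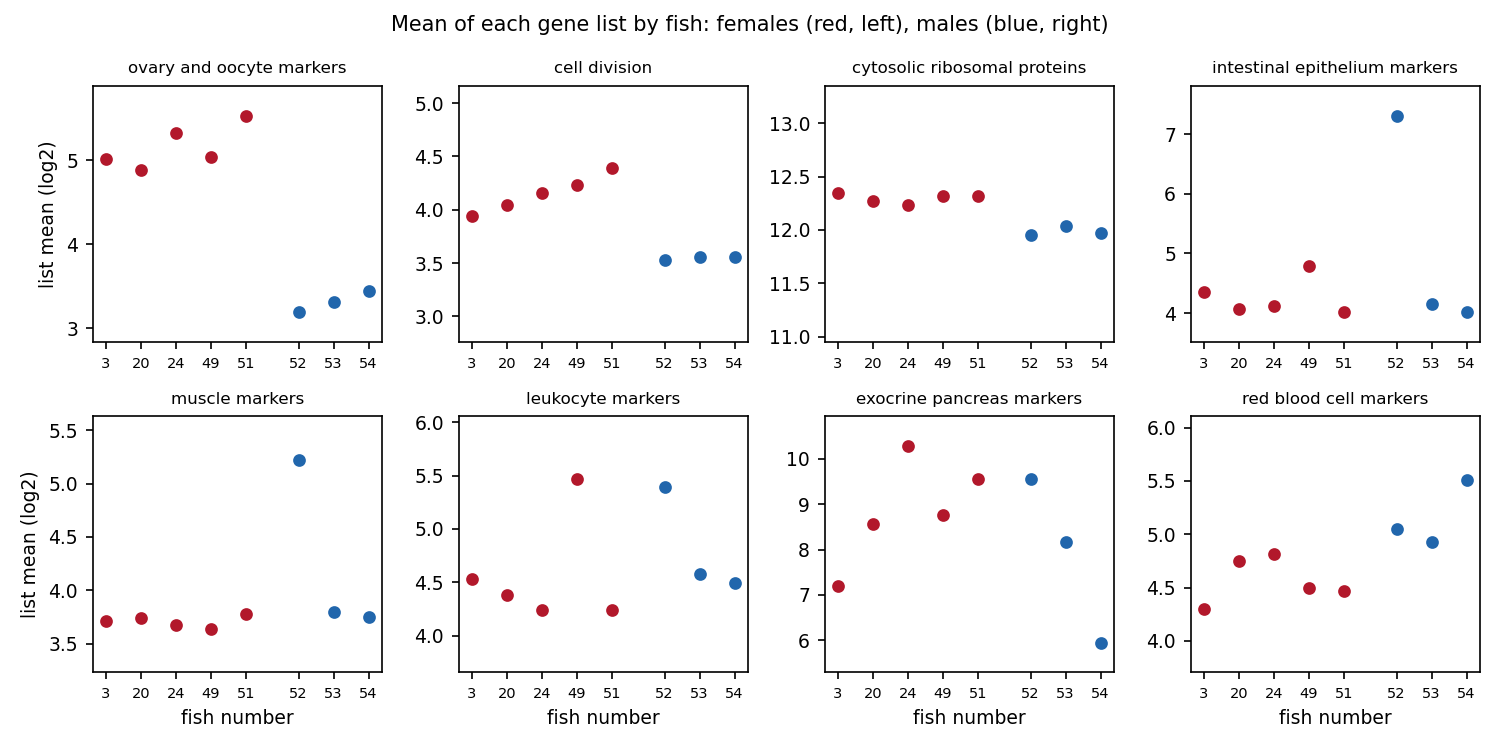
Mean deposited log2 value of 8 gene lists (y axis) for each fish (x axis, fish number), with the 5 females in red on the left and the 3 males in blue on the right; each panel has its own range and none starts at 0. The oocyte, cell division and cytosolic ribosomal protein means are higher in all females than in all males. The red blood cell mean is lower in all females (4.30 to 4.81) than in all males (4.93 to 5.51). Fish 52 alone is high for intestine (7.31) and muscle (5.22), and the exocrine pancreas mean ranges from 5.94 to 10.3 across both sexes.

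The cytosolic ribosomal protein genes had small differences in a common direction, 72 of 73 being positive. Of 73 cytosolic ribosomal proteins, 60 were higher in all 5 females than in all 3 males, beside 8.06% of all genes. The test was passed by 10, all higher in females, beside 2.23% of all genes. The list median was 0.28. The list mean was 12.23 to 12.35 in females and 11.95 to 12.04 in males. rps27.2, of the small subunit, read 11.3, 11.2, 11.1, 11.4 and 11.3 in females, against 10.1, 10.6 and 10.5 in males (0.84 ± 0.14, adjusted p 0.0170). rpl22l1 was higher by 0.83 ± 0.17 (adjusted p 0.0463) and rpl5a, of the large subunit, by 0.60 ± 0.11 (adjusted p 0.0263). rps27.2 passed in each fit without 1 fish. rpl22l1 was lost without any 1 of the 8, with adjusted p of 0.0527 to 0.104, and rpl5a without fish 3, 20, 49, 51, 52 or 54, with adjusted p of 0.0511 to 0.0934.

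How many ribosomal proteins passed depended on the fit. The count was 4 after quantile normalization, where the list median was 0.149, 1 with a robust, intensity-dependent variance prior, 3 without fish 52, 1 without fish 54, 2 without fish 20, 3 without fish 3, 4 without fish 49 or 51, 6 without fish 53, and 35 when the 9 arrays of the 0% diet lent their spread. Over all genes, 1.55% were higher without fish 52, and 372 of 8793 with all 17 arrays in the fit. All medians of the ribosomal list were positive, and centring each array on its median gave 0.248. On 0% carbohydrate the list median was 0.359 and 53 of the 73 passed as higher in females in the fit of 17 arrays, beside 2.95% of all genes, and no ribosomal protein passed the interaction. Of 59 mitochondrial ribosomal proteins none passed, with 21 positive differences and a median of -0.058.

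Of 89 translation factors and tRNA synthetases 7 were higher in females and none lower, beside 2.23% and 0.682% of all genes. Of the 89 differences 58 were positive. eif5a2, a paralogue of the elongation factor eIF5A, read 10.1, 9.85, 9.44, 9.49 and 9.55 in females, against 8.23, 8.72 and 8.83 in males (1.09 ± 0.19, adjusted p 0.0261), with 0.74 (adjusted p 0.145) in its second probe set, and eef1a1l3, an elongation factor 1 alpha gene, was higher by 1.18 ± 0.12 (adjusted p 0.00161). eif4e1b, a cap-binding protein known from oocytes, read 3.70 to 4.25 in females and 2.87 to 3.28 in males (0.84 ± 0.15, adjusted p 0.0278), and its interaction was 0.86 ± 0.17 (adjusted p 0.0304). eif5a2 was lost without fish 20, 51, 52 or 53 (adjusted p 0.0541 to 0.0723) and eif4e1b without fish 3, 24, 49, 52, 53 or 54 (adjusted p 0.0528 to 0.0842), while eef1a1l3 passed throughout. The interaction of eif4e1b was lost in 10 of the 17 fits without 1 fish, with adjusted p up to 0.0919. The count was 3 without fish 52, without fish 3, without fish 49 or without fish 51, 2 without fish 54, and 4 without fish 20 or 53. Without fish 52, 1.55% of all genes were higher.

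Fewer genes were lower in females, and none of the lists held more than 3 of them. hbba2, an adult beta globin gene, read 3.37, 4.56, 3.39, 4.12 and 3.75 in females, against 8.70, 7.61 and 8.999 in males (-4.60 ± 0.38, adjusted p 0.00034). No other haemoglobin gene passed. hbaa1, an adult alpha globin gene, read 10.1, 11.5, 11.4, 11.3 and 11.2 in females, against 12.3, 11.7 and 12.2 in males, without overlap (-0.99 ± 0.33, adjusted p 0.202). The embryonic globin hbae3 differed by 0.45 ± 0.15 (adjusted p 0.201), and by 0.19 in its second probe set, and hbbe2 and hbbe3 differed by 0.06 and 0.05. Of 22 red blood cell markers hbba2 was the only one called, beside 0.682% of all genes lower in females. The list mean was 4.30 to 4.81 in females and 4.93 to 5.51 in males. The part of blood content in the hbba2 difference was not tested. Globin genes have near-identical copies, so a probe set can read a related gene.

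slc13a5a, a transporter that takes citrate from the blood into the cell, read 2.499, 2.49, 2.32, 3.12 and 2.31 in females, all below the array median, against 6.09, 5.76 and 5.46 in males (-3.23 ± 0.21, adjusted p 0.000115). On 0% carbohydrate it read 2.45 ± 0.10 in females (SD, n = 5) and 2.95 ± 0.40 in males (SD, n = 4), and its interaction of -2.73 ± 0.28 (limma, adjusted p 0.00101) was the only one of 108 interaction calls below 0. The interaction passed without each of the 17 fish in turn, at adjusted p up to 0.00706. Among the 4 groups, the males fed 25% carbohydrate stood above the other 3.

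zgc:64106, which has no described role in the files, read 4.20, 3.92, 4.33, 5.29 and 3.46 in females, against 8.59, 8.51 and 8.74 in males (-4.37 ± 0.35, adjusted p 0.000331). etnppl, an enzyme that breaks down phosphoethanolamine, read 4.91, 4.39, 5.54, 4.401 and 3.98 in females, against 8.35, 6.66 and 7.12 in males (-2.73 ± 0.45, adjusted p 0.0183). syt5a, a synaptotagmin of calcium-dependent vesicle fusion, differed by -2.39 ± 0.37 (adjusted p 0.0139), cldn3d, a claudin, by -2.14 ± 0.28 (adjusted p 0.00530), and slc34a2b, a sodium-phosphate cotransporter, by -1.90 ± 0.23 (adjusted p 0.00388). These 3 passed without each fish in turn, as did zgc:64106, while etnppl was lost without fish 20 or 54 (adjusted p 0.0537 and 0.0551).

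Smaller differences closed the set of 12. usp2a, a deubiquitinating enzyme, read 3.08 to 3.37 in females and 4.15, 5.47 and 4.74 in males (-1.55 ± 0.26, adjusted p 0.0202). slc35b4, a nucleotide sugar transporter of the Golgi, differed by -1.502 ± 0.30 (adjusted p 0.0416), and fthl28, a ferritin heavy chain-like gene, by -1.49 ± 0.29 (adjusted p 0.0367). In these 3 genes all females lay below the array median and fish 52 was the lowest male. Without fish 52 their adjusted p were 0.00314, 0.00567 and 0.00969. usp2a was lost without fish 3, 51 or 54 (adjusted p up to 0.0651), slc35b4 without any fish other than 52 (0.0663 to 0.158) and fthl28 without fish 3, 20, 24, 49, 51 or 54 (0.0761 to 0.0913).

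Heat shock genes gave 3 of the lower calls. dnajb1b, a co-chaperone of Hsp70, read 4.49, 4.42, 4.95, 4.73 and 4.66 in females, against 6.30, 7.19 and 5.63 in males (-1.72 ± 0.31, adjusted p 0.0286). dnaja2b, of the same family, differed by -1.41 ± 0.24 (adjusted p 0.0223) in a probe set that shares probes with other transcripts. Its second probe set gave -0.63 (adjusted p 0.0957). dnaja1 differed by -0.50 ± 0.10 (adjusted p 0.0370). It read 2.79 to 3.14 in females and 3.58, 3.49 and 3.39 in males, near or below the array medians of 3.52 to 3.61. cct2, a subunit of the chaperonin that folds actin and tubulin, went the other way (1.06 ± 0.18, adjusted p 0.0224), with its second probe set at 0.31 (adjusted p 0.347). Of 46 members 1 was thus higher and 3 lower, beside 2.23% and 0.682% of all genes. dnajb1b was lost without fish 3, 20, 49, 51 or 52 (adjusted p 0.0629 to 0.0763), dnaja2b without fish 3, 20, 51, 53 or 54 (0.0547 to 0.0600) and with all 17 arrays in the fit (0.0779), dnaja1 without fish 20, 24, 49, 51, 52, 53 or 54 (0.0513 to 0.131) and cct2 without fish 20, 52, 53 or 54 (0.0547 to 0.0849).

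Among the insulin-like growth factor genes, igf1 was lower in every female than in all 3 males. igf2a and igf2b were lower in every female than in fish 53 and 54 only. igf1, the growth factor that the liver releases under growth hormone, read 5.34, 5.54, 4.79, 5.59 and 5.61 in females, against 6.36 in fish 52 and 7.96 and 7.99 in fish 53 and 54. The difference was -2.06 ± 0.39 (adjusted p 0.0332), and it was -2.60 without fish 52 (adjusted p 0.00141). It was lost when any of the other 7 fish was left out, with adjusted p of 0.0641 to 0.131, after quantile normalization (0.0542) and with all 17 arrays in the fit (0.0527). igf2a read 6.83, 5.47, 5.68, 6.06 and 6.10 in females, against 5.39, 9.22 and 9.90 in males, so that fish 52 lay below every female. Its difference of -2.14 ± 0.93 did not pass (adjusted p 0.318), and without fish 52 it was -3.53 (adjusted p 0.00280).

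The same fish decided the count for this pathway. Of 35 measured genes of the insulin, growth hormone and IGF axis, igf1 alone was lower in females with all 8 fish, and 6 were lower without fish 52. Over all genes the shares lower were 0.682% with fish 52 and 1.08% without it. The other 5, named here after their values were seen, were igf2a, igf2b, the growth hormone receptor ghrb, the insulin receptor substrate irs2a and the receptor adaptor grb10a. ghrb read 7.12, 7.37, 7.18, 7.13 and 7.51 in females, against 6.19, 8.57 and 9.44 in males, and its difference was -0.81 ± 0.62 (adjusted p 0.586) with fish 52 and -1.75 (adjusted p 0.00974) without it. igf2b differed by -1.73 ± 0.65 (adjusted p 0.249) with fish 52 and by -2.61 (adjusted p 0.0264) without it. Without fish 52, irs2a differed by -0.77 (adjusted p 0.0310) and grb10a by -0.65 (adjusted p 0.0487). The insulin receptors insra and insrb differed by -0.16 and 0.05 and did not pass. Fish 52 is also the male with the high intestinal and muscle marker means, and the part of other tissue in its low values was not tested.

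**Figure D5:**
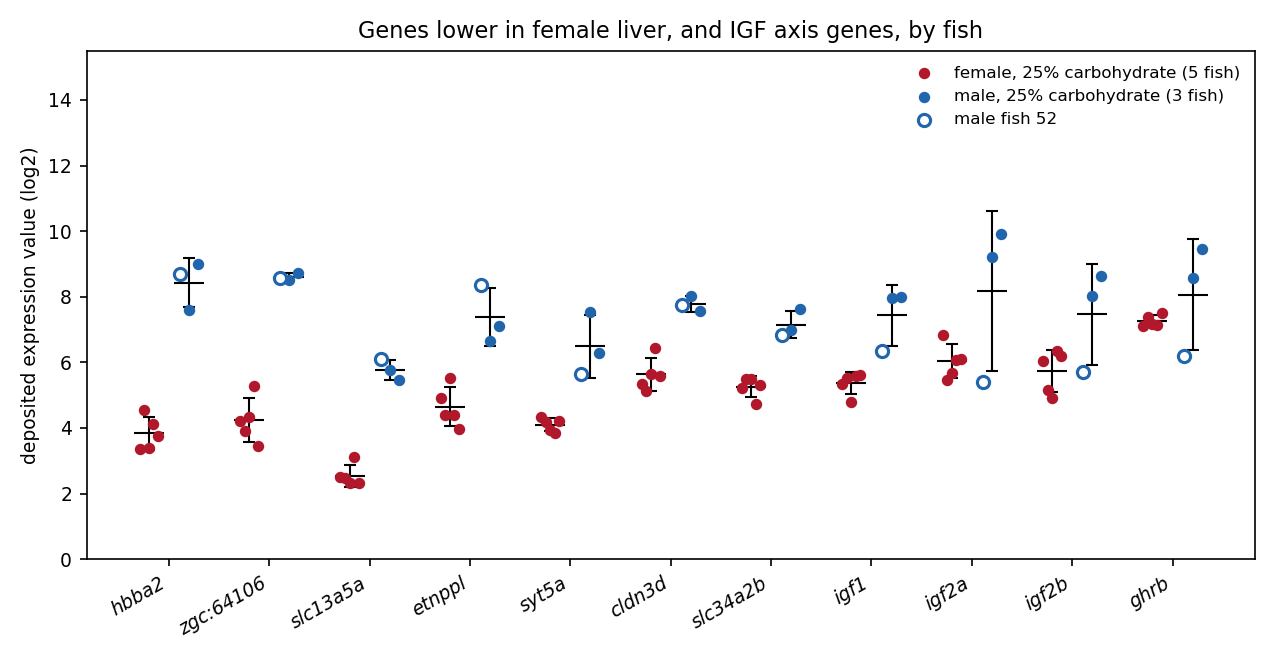
Deposited log2 values (y axis) by fish for 8 called genes that were lower in females and for igf2a, igf2b and ghrb, which did not pass, with the 5 females (red) left of the 3 males (blue, fish 52 as an open circle); the line and bars are the mean ± SD. Fish 52 lies with the other males for hbba2, zgc:64106 and slc13a5a, and below every female for igf2a and ghrb.

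Genes of carbohydrate and lipid metabolism showed few calls, to be read beside the 2.23% of all genes higher in females and the 0.682% lower. Of 20 genes of gluconeogenesis none passed, although 18 of the differences were negative and the median was -0.319. pck1, the cytosolic enzyme that starts gluconeogenesis, read 2.54, 4.62, 6.83, 3.34 and 5.50 in females, against 6.73, 8.24 and 7.62 in males. Female fish 24 overlapped male fish 52, and the difference of -2.97 ± 0.92 had an adjusted p of 0.172 (0.191 without fish 52). Of 43 genes of glycolysis and glycogen 2 were higher. gyg1a, the primer protein of glycogen, was higher by 1.60 ± 0.26 (adjusted p 0.0177) in 1 probe set and differed by -0.21 (adjusted p 0.610) in its other, and the call was lost without fish 20, 52 or 54 (adjusted p 0.0506 to 0.0590). tpi1a, a triose phosphate isomerase, was higher by 0.83 ± 0.12 (adjusted p 0.00885), with all males below the array median, and passed without each fish.

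Of 41 genes of lipid synthesis and NADPH supply, 2 were higher and slc13a5a was lower. mid1ip1l, a relative of the protein that promotes polymerisation of acetyl-CoA carboxylase, read 8.002, 8.52, 8.004, 7.78 and 8.41 in females, against 6.64, 5.61 and 5.94 in males (2.08 ± 0.25, adjusted p 0.00399). elovl6l, a fatty acid elongase gene, read 3.57 to 4.01 in females and 2.37 to 2.51 in males, all 3 males being below their array median. Its difference was 1.44 ± 0.11 (adjusted p 0.000279), and its interaction was 1.31 ± 0.18 (adjusted p 0.00550). The calls of mid1ip1l and elovl6l held without each fish. me1, a malic enzyme of the cytosol and a source of NADPH, read 9.47, 9.13, 10.4, 7.73 and 7.54 in females, against 9.56, 10.5 and 11.1 in males, with overlap, and its difference of -1.51 ± 0.69 did not pass (adjusted p 0.342).

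Of 43 genes of fatty acid oxidation and the peroxisome, cpt2, the inner carnitine acyltransferase of the mitochondrion, was the only call. It read 6.41, 6.74, 7.07, 6.97 and 6.77 in females, against 7.45, 7.77 and 7.84 in males (-0.89 ± 0.16, adjusted p 0.0295), with -0.34 (adjusted p 0.359) in its second probe set. The call was lost without fish 20, 51, 53 or 54 (adjusted p 0.0717 to 0.121), and 3 members were lower without fish 52, beside 1.08% of all genes. Only 6 of the 43 differences were positive, and the list median was -0.279, beside 0.002 over all genes. Of 89 xenobiotic and steroid metabolising enzymes cyp2k6 and cyp11a1.1 were higher, beside 2.23% of all genes. cyp11a1.1, the side-chain cleavage enzyme that starts steroid synthesis, read 3.08 to 3.43 in females and 2.56 to 2.71 in males, below the array median in all 8 fish (0.57 ± 0.10, adjusted p 0.0248), and was lost without fish 3, 52, 53 or 54 (adjusted p 0.0637 to 0.0744).

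No member passed among 88 genes of oxidative phosphorylation (median -0.168), 50 of the proteasome (-0.204), 69 of amino acid and one-carbon catabolism (-0.106), 35 secreted plasma proteins and apolipoproteins (-0.193), 33 of complement and coagulation (-0.265), 18 of cholesterol and bile acids (-0.239), 30 of the circadian clock (-0.085), 41 nuclear hormone receptors other than the oestrogen receptors (-0.019) or 16 hepatocyte transcription factors (-0.343). Of 36 iron, haem and antioxidant genes fthl28 was the only call, beside 0.682% of all genes lower in females. Without fish 52, 1.08% of all genes were lower and 1.55% higher. In that fit 4 of 69 genes of amino acid catabolism and 4 of 33 of complement and coagulation were lower. In oxidative phosphorylation 1 of 88 was lower, and in cholesterol and bile acids 1 of 18 was higher. Without fish 49, 1 gene of oxidative phosphorylation was lower and 1 of cholesterol and bile acids higher, and without fish 53, 1 of complement and coagulation was lower. The 17 exocrine pancreas markers, whose mean was 7.19 to 10.3 in females and 5.94 to 9.56 in males, gave no call, nor did 12 endocrine pancreas and 44 muscle markers.

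Across all probe sets, the calls on 25% carbohydrate overlapped in part with those on 0%. The fish compared on each diet differ, but the 0% calls come from the fit of 17 arrays, so their spread was estimated partly from the 8 fish of the 25% diet. The 25% calls come from the fit of 8 arrays. In the fit of 17 arrays they were 550 higher and 211 lower, so the shares below compare unlike fits. Of the 300 higher on 25%, 291 had a positive difference on 0% and 67 (22.3%) passed there as higher. That is 19% of the 352 called higher on 0% among all 15502 probe sets. The median difference of the 300, which were chosen for being high on 25%, was 1.87 on 25% and 0.5 on 0%, and 105 of them passed the interaction. Of the 94 lower on 25%, 90 had a negative difference on 0% and 24 (25.5%) passed there as lower, which is 14.6% of 164. The median difference of the 94, chosen for being low on 25%, was -0.804 on 25% and -0.453 on 0%, and 1 passed the interaction.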

How the data were processed

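The deposited table holds 1 log2 value per probe set and array, made by the authors; its array medians span 0.088, as normalized values would. The values reach 14.38 at most, from which base 2 was taken. Per the submitters' processing notes, the tools named are MAS5, RMA, GCRMA and PLIER, and which of them made this table is not given in the sources used here. The values were used as they stood. Of 15617 probe sets, 115 controls were left out. The platform annotation gave 1 symbol to 10795 probe sets and several to 135, left 4572 unnamed, and was checked through Entrez IDs for 10711.

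Differences were tested with limma 3.58.1 (lmFit, eBayes; R 4.3.3) on the 8 arrays, with p values adjusted by Benjamini and Hochberg over 15502 probe sets. The interaction was fitted on 17 arrays. The fit was tested on simulated data. Each gene in the 32 lists is represented by its brightest probe set. Named genes are the 12 highest and 12 lowest called probe sets with 1 symbol, up to 3 per list and direction, and the 5 highest and lowest interactions. esr1, vtg2, vtg3, vtg4, nots, pck1, me1, igf1, igf2a, xbp1 and the haemoglobin genes are always given. The members and lists were chosen with earlier results of these data known. The small number of arrays limits the precision.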

Additional observations from a re-analysis of the deposited data

Results flagged for a closer look

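Single female fish far from the other 4 were found in 8 of 98 values examined (a gene or a list mean over the 5 females), and chance gives about 1 in 20. These were vtg2 at 13.1 in fish 24, cyp2k6 at 8.31 in fish 49, ccnb2 at 6.66 in fish 51, hbae3 at 4.75 in fish 24, hbaa1 at 10.1 in fish 3, slc13a5a at 3.12 in fish 49, the glycolysis and glycogen mean at 6.17 in fish 24 and the leukocyte mean at 5.47 in fish 49. Fish 49 had a leukocyte mean close to the 5.39 of male fish 52.

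The sex difference on 25% carbohydrate differed from that on 0% by the interaction test for 15 of the 65 genes named by the rule. Over the whole array 108 of 15502 probe sets passed that test, and 0.785% of all genes passed it upward. The naming rule itself took in the highest and lowest interactions that passed, so part of the count of 15 was fixed in advance. The sex difference was higher on 25% by 3.43 for si:dkey-90l23.1, 3.35 for si:ch211-12h2.8, 3.30 for tmsb5, 3.29 for cldnd, 3.28 for zgc:173837, 3.03 for zp3a.1, 2.95 for thy1, 2.53 for ccnb1, 2.46 for chia.4, 2.27 for ccna1, 2.14 for cdca7a, 1.94 for ccnb2, 1.31 for elovl6l and 0.86 for eif4e1b. Of these calls, those of si:ch211-12h2.8 and cdca7a were lost in 14, that of eif4e1b in 10, that of cldnd in 3 and those of zp3a.1 and thy1 in 1 of the 17 fits without 1 fish. For slc13a5a it was -2.73.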

How the results depend on the processing

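Against 394 calls with the 8 arrays, 761 probe sets (550 higher, 211 lower) were called when all 17 arrays shared the spread, and array weights gave 210 lower; the cause was not tested. Leaving out 1 fish gave 246 to 364 calls, 201 to 274 higher and 36 to 142 lower, beside 300 and 94; the lower count was 45 without fish 3, 36 without fish 20, 60 without fish 49, 42 without fish 51, 142 without fish 52 and 45 without fish 53, and the total was 246 without fish 53. The interaction count of 108 was 64 with array weights and 43 to 163 without 1 fish. Of 59 named calls none changed sign in any alternative run and 37 passed in each; hbbe2 and hbbe3, cyp19a1a and fshr, which were not called and lay near 0, changed sign without single fish. Of 66 named probe sets, 5 lost the call after quantile normalization, 2 after centring, 8 with a robust variance prior, 1 with array weights, 2 among brighter probe sets, 4 with 17 arrays and 5 with a gene's probe sets averaged; dnd1, mmp2, rpl22l1, rtn1a, cpt2 and igf1 were among them. No paired analysis was possible because the females and males share no fish number. The counts of 3 males and 5 females set the limit: probe sets near background give only an approximate size.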
